A study of Mus musculus with 6 samples.

Results

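The 10 genes described here are imprinted genes and transcripts that neurons are known to express: Gnas, Gnasas1, Meg3, Rian, Mirg, Peg3, Ndn, Magel2, Snhg14 and Zdbf2. They were found in the deposited gene table by symbol, 1 row each, as 10 of its 37475 genes. They were selected on their measured counts in this same comparison, so their own differences are given as a description, with no test. The tissue was spinal cord of wild-type mice, taken 3 days after the cord was bruised by an impactor at the level of the T10 vertebra. All mice carried the injury. In 1 group (3 biological replicates) they received phosphate-buffered saline (PBS), the vehicle, by daily intraperitoneal injection, and in the other (3 biological replicates) syringin, a plant phenylpropanoid glucoside, at 50 mg/kg daily by the same route. The sources used here do not give age, sex or strain, and uninjured cord was not analysed here.

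An imprinted gene is transcribed mainly from the copy inherited from the mother or mainly from that inherited from the father, because germline DNA methylation marks a control region on 1 of the parental copies. Imprinted genes lie in clusters that mix protein-coding genes of one parental origin with long non-coding RNAs of the other, often on opposite strands, and many are abundant in neurons. The 10 members fall into 5 such clusters: Gnas with its antisense RNA, the Dlk1-Dio3 cluster (Meg3, Rian and Mirg), the Peg3 cluster, the Prader-Willi/Angelman cluster (Ndn, Magel2 and Snhg14) and the Zdbf2 cluster. The table sums reads over both parental copies, so which copy was transcribed was not measured.

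Values are CPM, counts relative to the scaled library total, or FPKM, which also divides by transcript length. The deposited counts summed to between 65579117 and 78843034 per library. Among small counts, multiples of 4 were in excess, and a count of 4 was 1.51 times as frequent as its neighbours. By edgeR's quasi-likelihood test the groups differed in 1108 of 22114 tested genes at a Benjamini-Hochberg adjusted p under 0.05. Without PBS library 3 that number was 0, with 3449 genes at an unadjusted p under 0.05. Markers of sensory neurons of the dorsal root ganglia, which are not part of the cord, differed widely within each group: their summed level ranged from 57.9 to 369 CPM in the PBS libraries and from 28.9 to 301 CPM in the syringin libraries. Positions are given as deposited. Per the submitters' processing notes the build was GRCm38 (mm10). In a GRCm38 annotation (GENCODE M21) 0 of the 10 members, and 676 of 34804 shared genes, start at the same base. The deposited positions thus do not match that annotation, and their build is not known. The sequence windows below are placed in GRCm38.p6, and their positions cannot be set beside the deposited ones.

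Because Gnas encodes the G protein that raises cAMP, the start regions of the members were searched for the cAMP response element, TGACGTCA, the palindrome bound by CREB-family factors. RefSeq (GRCm38.p6) gives 14 start windows for 9 of the 10 members, each with 250 bases before and 50 after the start. Of these 14 windows 3 held the element, at Meg3, Peg3 and Zdbf2, against 1.79% of 32817 windows of the same length. The 3 windows are shown 5′ to 3′ on the strand of the gene, with the element in capitals.
Meg3, chr12:109540746-109541045, plus strand: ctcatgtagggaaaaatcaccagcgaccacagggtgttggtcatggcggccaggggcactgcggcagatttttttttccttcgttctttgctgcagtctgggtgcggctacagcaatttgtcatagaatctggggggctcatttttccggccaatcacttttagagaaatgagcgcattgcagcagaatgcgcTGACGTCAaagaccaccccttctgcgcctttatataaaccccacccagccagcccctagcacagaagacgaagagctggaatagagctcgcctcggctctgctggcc
Peg3, chr7:6730370-6730669, minus strand: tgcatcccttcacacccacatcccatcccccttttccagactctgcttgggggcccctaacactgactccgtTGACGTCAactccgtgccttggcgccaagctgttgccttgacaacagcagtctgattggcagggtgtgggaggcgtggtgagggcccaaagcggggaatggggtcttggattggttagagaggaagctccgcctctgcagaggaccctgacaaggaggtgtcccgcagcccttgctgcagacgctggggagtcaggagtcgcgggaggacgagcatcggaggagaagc
Zdbf2, chr1:63273019-63273318, plus strand: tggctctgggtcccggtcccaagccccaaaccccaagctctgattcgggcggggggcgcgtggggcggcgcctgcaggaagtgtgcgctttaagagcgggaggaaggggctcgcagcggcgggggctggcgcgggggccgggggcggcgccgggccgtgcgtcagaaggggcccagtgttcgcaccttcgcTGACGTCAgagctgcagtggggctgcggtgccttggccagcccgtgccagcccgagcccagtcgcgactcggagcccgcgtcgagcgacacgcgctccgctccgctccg
The element begins 57 bases before the start of Meg3 and 59 bases before that of Zdbf2. In the Peg3 window it begins 178 bases before the start and is the same site, chr7:6730590-6730597, that the window of Usp29 holds on the opposite strand. Counted by gene over the 13930 tested genes with a window, 3.08% held the element. Their median log2 fold change was 0.01 against 0.02 for all of these genes, 6.29% of them were called lower against 4.02%, and 1.40% were called higher against 2.00%. The medians thus differed little, while the share called lower was larger among genes with the element, and neither difference was tested. Among the other imprinted genes with a window, 2 of 51 held the element, Usp29 and Th. The core of the YY1 site, CCATNTT, on either strand, was found in 1 of the 14 windows, at Magel2, against 16.1% of all windows. At least 10 CpG dinucleotides were found in 11 of the 14 windows, against 43.4% of all. The cAMP response element itself holds a CpG, and the windows it was counted against were not matched for CpG number. The 14 also include overlapping windows of Gnas. A match shows only which letters are present in a window.

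All 10 members had a lower mean in the syringin group, at 14.5% to 88.0% of that in the PBS group. The median log2 fold change was -0.54, where that of all 22114 tested genes was 0.01. In 6 members (Gnas, Gnasas1, Meg3, Rian, Peg3 and Zdbf2) all 3 syringin libraries lay below all 3 PBS libraries, an arrangement that 15.3% of tested genes showed, and 14.7% showed the opposite. In the other 4 (Mirg, Ndn, Magel2 and Snhg14) the groups overlapped. Gnasas1 and Zdbf2 were among the 3.39% of genes called lower; since this contrast chose the members, nothing is read from either count. Syringin library 2 was the lowest of the 6 libraries for all 10 members, and syringin library 3 was the highest of its group for 9 of them. In bulk tissue, fewer cells that contain a transcript and less of it per cell cannot be told apart.

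**Figure D1:**
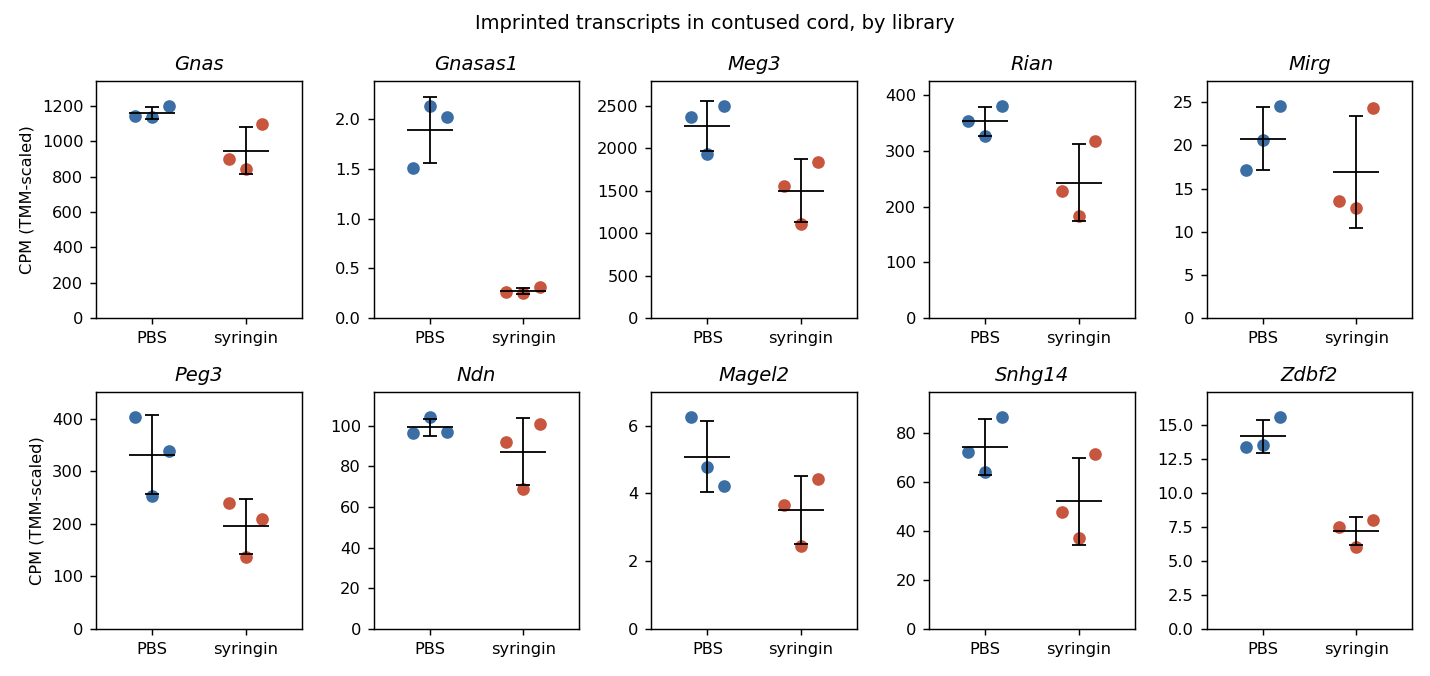
CPM of the 10 members (vertical axis, from 0) in each of the 3 PBS libraries (blue) and 3 syringin libraries (red), with the mean (wide bar) and SD (error bar) of each group. Gnasas1 and Zdbf2 show the widest gaps between the groups, while in Ndn, Mirg, Magel2 and Snhg14 syringin library 3 reaches into the range of the PBS libraries.

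Per transcript length, Meg3 and Gnas were the most abundant members in the PBS group, at 110.2 ± 14.5 FPKM (SD, n = 3) and 94.5 ± 2.75 FPKM. Ndn followed at 24.9 ± 1.03 FPKM, Peg3 at 22.6 ± 5.17 FPKM and Rian at 10.2 ± 0.785 FPKM. Mirg, at 2.64 ± 0.461 FPKM, and Snhg14, at 2.63 ± 0.405 FPKM, lay close together, as did Zdbf2, at 1.04 ± 0.0896 FPKM, and Magel2, at 1.02 ± 0.208 FPKM. The scarcest was Gnasas1, at 0.55 ± 0.0964 FPKM. Within each of the pairs Meg3 and Gnas, Ndn and Peg3, Mirg and Snhg14, and Zdbf2 and Magel2, the ranges over the PBS libraries overlapped, although Meg3 was above Gnas in each of the 3. In the syringin group Gnas, at 75.9 ± 10.5 FPKM, and Meg3, at 72.0 ± 18.2 FPKM, were again within their spread of each other.

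Gnas (chromosome 2, 174126113 to 174188537, plus strand) encodes the alpha subunit of the stimulatory G protein, which couples receptors to adenylyl cyclase, and, from alternative first exons, the secretory protein NESP55 and the larger subunit XLas. The table gives 1 value for all 27 of its transcripts, so these products are not separated. Gnas stood at 1144, 1137 and 1197 CPM in PBS libraries 1 to 3 and at 898, 844 and 1097 CPM in syringin libraries 1 to 3. The syringin libraries were all lower, library 3 by little, and the log2 fold change was -0.29 ± 0.12 (standard error), a level 81.6% of that in the PBS group.

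Gnasas1, also called Nespas, is a long non-coding RNA transcribed from the paternal copy across the NESP55 start. Its span (chromosome 2, 174123024 to 174137229, minus strand) runs over the first part of Gnas on the opposite strand. Gnasas1 had 114, 143 and 138 counts in the PBS libraries and 21, 16 and 21 in the syringin libraries, or 1.51, 2.13 and 2.02 CPM against 0.259, 0.251 and 0.309 CPM. The gap between the groups was wide, and the 3 syringin libraries lay close together. The log2 fold change was -2.78 ± 0.31, a level 14.5% of that in the PBS group, and -2.80 with all counts divided by 4. As a share of the FPKM of Gnas, Gnasas1 was 0.582% ± 0.102 (SD, n = 3) in the PBS libraries and 0.101% ± 0.00569 in the syringin libraries. The syringin shares rest on deposited Gnasas1 values of 0.07, 0.07 and 0.09 FPKM. With values rounded so coarsely, the small spread of these shares is not a measure of precision. The kit marks strand, but the sources used here do not say whether counting used it, and without it reads of an antisense RNA and its partner cannot be told apart. Of the tested genes within 100 kb of Gnas, Nelfcd, a subunit of the negative elongation factor, had a log2 fold change of 0.05 ± 0.09 and Ctsz, a lysosomal cathepsin, of 0.60 ± 0.20, and neither passed the edgeR test (adjusted p = 0.777 and 0.129).

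The Dlk1-Dio3 cluster on chromosome 12 carries Meg3, Rian and Mirg on the plus strand in that order. They are non-coding RNAs of the maternal copy: Meg3 is a nuclear long RNA, Rian hosts small nucleolar RNAs (snoRNAs) and Mirg hosts microRNAs. Meg3 (109506879 to 109538165) stood at 2365, 1933 and 2495 CPM in the PBS libraries and at 1560, 1107 and 1842 CPM in the syringin libraries. The groups did not overlap, although syringin library 3 lay just below PBS library 2. Its log2 fold change was -0.59 ± 0.20.

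Rian (109570242 to 109628150) followed the same order of libraries, with 353, 327 and 380 CPM in the PBS group and 228, 183 and 319 CPM in the syringin group, and a log2 fold change of -0.54 ± 0.19. The FPKM of Rian was 9.35% ± 0.635 of that of Meg3 in the PBS libraries and 9.61% ± 0.830 in the syringin libraries (SD, n = 3), so the ratio differed by less than its spread. Mirg (109696198 to 109715894) stood at 17.2, 20.6 and 24.5 CPM in the PBS libraries and at 13.6, 12.7 and 24.4 CPM in the syringin libraries. For Mirg syringin library 3 was as high as the highest PBS library, the groups overlapped, and the log2 fold change was -0.30 ± 0.26. Its FPKM was 2.41% ± 0.459 of that of Meg3 in the PBS libraries and 2.90% ± 0.595 in the syringin libraries. Mature microRNAs and snoRNAs carry no poly(A) tail, and these libraries were made from polyadenylated RNA. The deposited rows include 13 snoRNAs and 4 miRNAs within Rian and 14 miRNAs within Mirg, and none of the small RNA rows within Rian had more than 61 counts over all 6 libraries. The only such row tested, Mir3072 within Mirg, held 87 counts, at a log2 fold change of -0.81 ± 0.68 (adjusted p = 0.524 in edgeR's test).

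The paternally expressed genes of the same cluster were not members. Dlk1, which encodes a membrane protein of the Notch ligand type, fell from 27.0 ± 0.786 to 18.5 ± 2.26 CPM (SD, n = 3), a log2 fold change of -0.54 ± 0.12 (edgeR adjusted p = 0.0437). Rtl1, a gene derived from a retrotransposon that lies opposite the gap between Meg3 and Rian, had 6.45 ± 0.772 CPM against 6.80 ± 2.52 CPM (log2 fold change 0.08 ± 0.28, adjusted p = 0.903). Begain, which encodes a postsynaptic protein, had a log2 fold change of -0.56 ± 0.20 (adjusted p = 0.139). Dio3, the thyroid hormone inactivating deiodinase, and Dio3os were scarce, at means of 1.99 and 0.964 CPM over the 6 libraries, and their standard errors on the log2 scale were 0.89 and 1.03. Of the 2 unnamed plus-strand transcripts between Rian and Mirg that were tested, Gm37899 held 75 counts in the PBS group and 28 in the syringin group and B830012L14Rik 134 and 79, and neither passed the test (adjusted p = 0.467 and 0.453).

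Peg3 (chromosome 7, 6706891 to 6733420, minus strand) encodes a paternally expressed zinc finger protein. It stood at 403, 253 and 339 CPM in the PBS libraries and at 239, 137 and 210 CPM in the syringin libraries. The groups did not overlap, but PBS library 2 lay only just above syringin library 1, and the libraries of each group were far apart. Its log2 fold change was -0.76 ± 0.23. It was -0.60 without PBS library 1 and -0.56 without syringin library 2.

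Usp29, a ubiquitin protease gene of the same parental origin, starts 156 bases from Peg3 and runs the other way. Usp29 was not a member. It stood at 26.6, 25.2 and 27.5 CPM in the PBS libraries and at 15.5, 9.82 and 13.1 CPM in the syringin libraries, and fell by 1.04 ± 0.17 on the log2 scale (edgeR adjusted p = 0.0209). Its FPKM was 6.19% ± 1.26 of that of Peg3 in the PBS group and 4.95% ± 0.329 in the syringin group. Zim1, a maternally expressed zinc finger gene next to Peg3, had 10.3 ± 2.22 CPM against 6.10 ± 0.593 CPM, a log2 fold change of -0.76 ± 0.19 that did not pass (adjusted p = 0.0627). The Zim1 to Peg3 ratio of FPKM was 5.30% ± 0.894 against 5.42% ± 1.25, less apart than its spread.

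In the Prader-Willi/Angelman cluster of chromosome 7, Ndn, Magel2, Snrpn and Snhg14 are expressed from the paternal copy. Ndn (61996317 to 62000010, plus strand) encodes necdin and Magel2 (62026758 to 62031388, plus strand) a larger relative, both members of the MAGE family that bind ubiquitin ligases. Ndn stood at 96.3, 104.2 and 97.0 CPM in the PBS libraries and at 92.0, 68.9 and 100.7 CPM in the syringin libraries. Only syringin library 2 was far from the rest, and the log2 fold change of -0.18 ± 0.14 became -0.04 without that library. Magel2 stood at 6.25, 4.79 and 4.22 CPM against 3.65, 2.46 and 4.44 CPM, with overlapping groups and a log2 fold change of -0.53 ± 0.27. The FPKM of Magel2 was 4.09% ± 0.923 of that of Ndn in the PBS libraries and 3.19% ± 0.328 in the syringin libraries.

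Snhg14 (58957672 to 59623205, minus strand) is the long host RNA that begins next to Snrpn, carries the repeated snoRNA genes of the cluster and, in neurons, extends across Ube3a as its antisense RNA. It stood at 71.9, 64.0 and 86.3 CPM in the PBS libraries and at 47.6, 37.0 and 71.4 CPM in the syringin libraries. Syringin library 3 lay among the PBS libraries and the other two below them, and the log2 fold change was -0.51 ± 0.23. The table places 93 rows over Snhg14, of which 90 are snoRNAs, 21 of these at 0 in all libraries and none above 96 counts in total. Reads from repeated copies may not be assigned to 1 copy with certainty, and the sources used here do not say how shared reads were counted. Of the 5 tested rows over Snhg14, A230103L15Rik, an unclassified transcript on the same strand, had 326 counts in the PBS group and 140 in the syringin group (log2 fold change -1.24 ± 0.38, edgeR adjusted p = 0.101). On the same strand Gm24966, Gm26498 and Gm44831 were at -0.55, -0.98 and -0.31 (adjusted p = 0.610, 0.422 and 0.694). On the opposite strand Gm44829 was at -0.81 (adjusted p = 0.355). None of the 5 passed, and in all but A230103L15Rik the groups overlapped.

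Snrpn, which shares its start region with the Snhg14 transcription unit and encodes a spliceosome protein, stood at 340, 275 and 301 CPM in the PBS libraries and at 216, 139 and 217 CPM in the syringin libraries. All syringin libraries were lower, but the log2 fold change of -0.68 ± 0.18 did not pass (edgeR adjusted p = 0.0692). Ube3a, the ubiquitin ligase gene that lies beyond the end of Snhg14 on the plus strand, had 119 ± 8.64 CPM against 105 ± 8.12 CPM, and its log2 fold change of -0.18 ± 0.09 did not pass either (adjusted p = 0.295). Of 4 minus-strand rows that lie across Ube3a, where the antisense extension of Snhg14 is known to run, 9330162G02Rik fell from 17.8, 14.7 and 15.7 CPM to 10.8, 7.55 and 10.4 CPM, by 0.75 ± 0.17 on the log2 scale (adjusted p = 0.0487). The others, Gm44560, Gm44559 and Gm44562, had log2 fold changes of -1.01, -1.09 and -0.54 and did not pass (adjusted p = 0.136, 0.238 and 0.598). Whether counting used strand is not known here either, so in all 4 rows reads of Ube3a itself and reads of an antisense RNA cannot be told apart. Mkrn3 and Peg12, intronless genes of the paternal copy, had log2 fold changes of 0.38 ± 0.27 and 0.75 ± 0.25, and Atp10a, a lipid flippase gene, of 0.11 ± 0.14, none of which passed (adjusted p = 0.452, 0.128 and 0.694).

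Zdbf2 (chromosome 1, 63312424 to 63353735, plus strand) encodes a zinc finger protein of the paternal copy. It stood at 13.4, 13.5 and 15.6 CPM in the PBS libraries and at 7.52, 6.04 and 8.04 CPM in the syringin libraries. The groups were well apart and each varied little, with a log2 fold change of -0.98 ± 0.16, a level 50.8% of that in the PBS group. It was -0.73 once library differences that follow transcript length and GC content were removed. Adam23, a neuronal adhesion protein gene of the same cluster, fell from 136 ± 14.9 to 80.4 ± 12.2 CPM (log2 fold change -0.76 ± 0.13, edgeR adjusted p = 0.0245). Cmklr2, formerly Gpr1, was scarce, at 0.233 CPM over the 6 libraries.

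**Figure D2:**
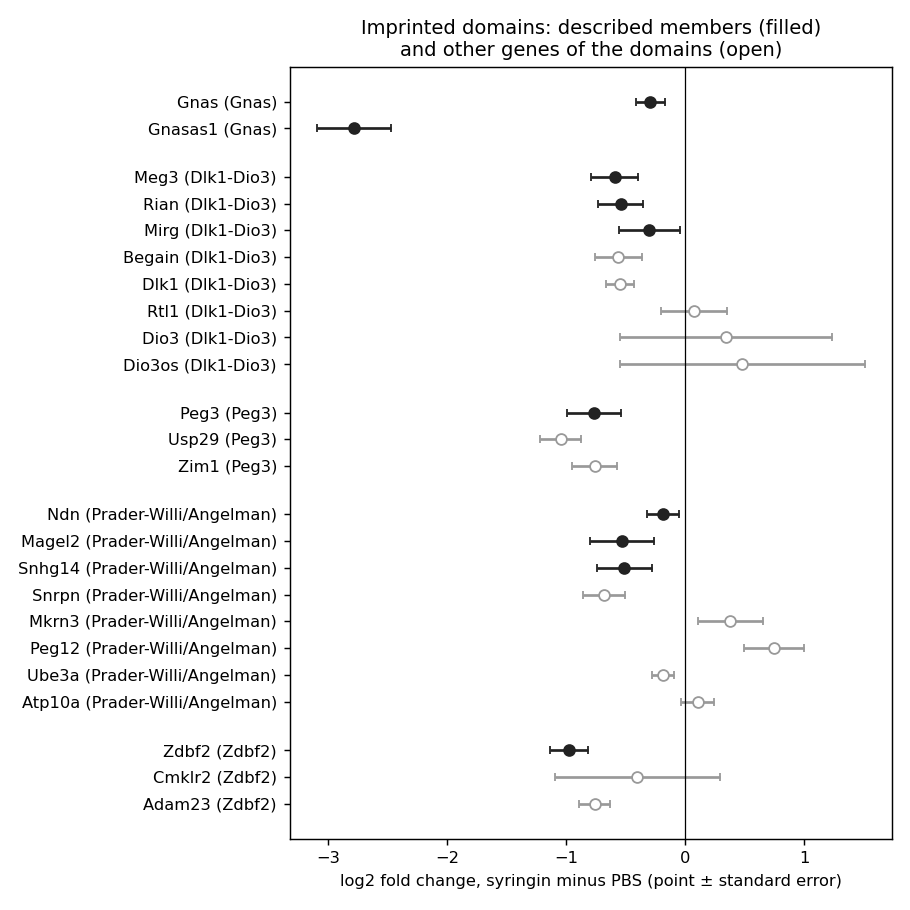
Log2 fold change of syringin against PBS (horizontal axis, point ± standard error, n = 3 per group) for the 10 members (filled) and the 14 other tested imprinted genes of their 5 clusters (open). All filled points lie left of 0, Gnasas1 at -2.78 lies far from the rest, and 6 of the 14 open points lie right of 0.

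**Figure D3:**
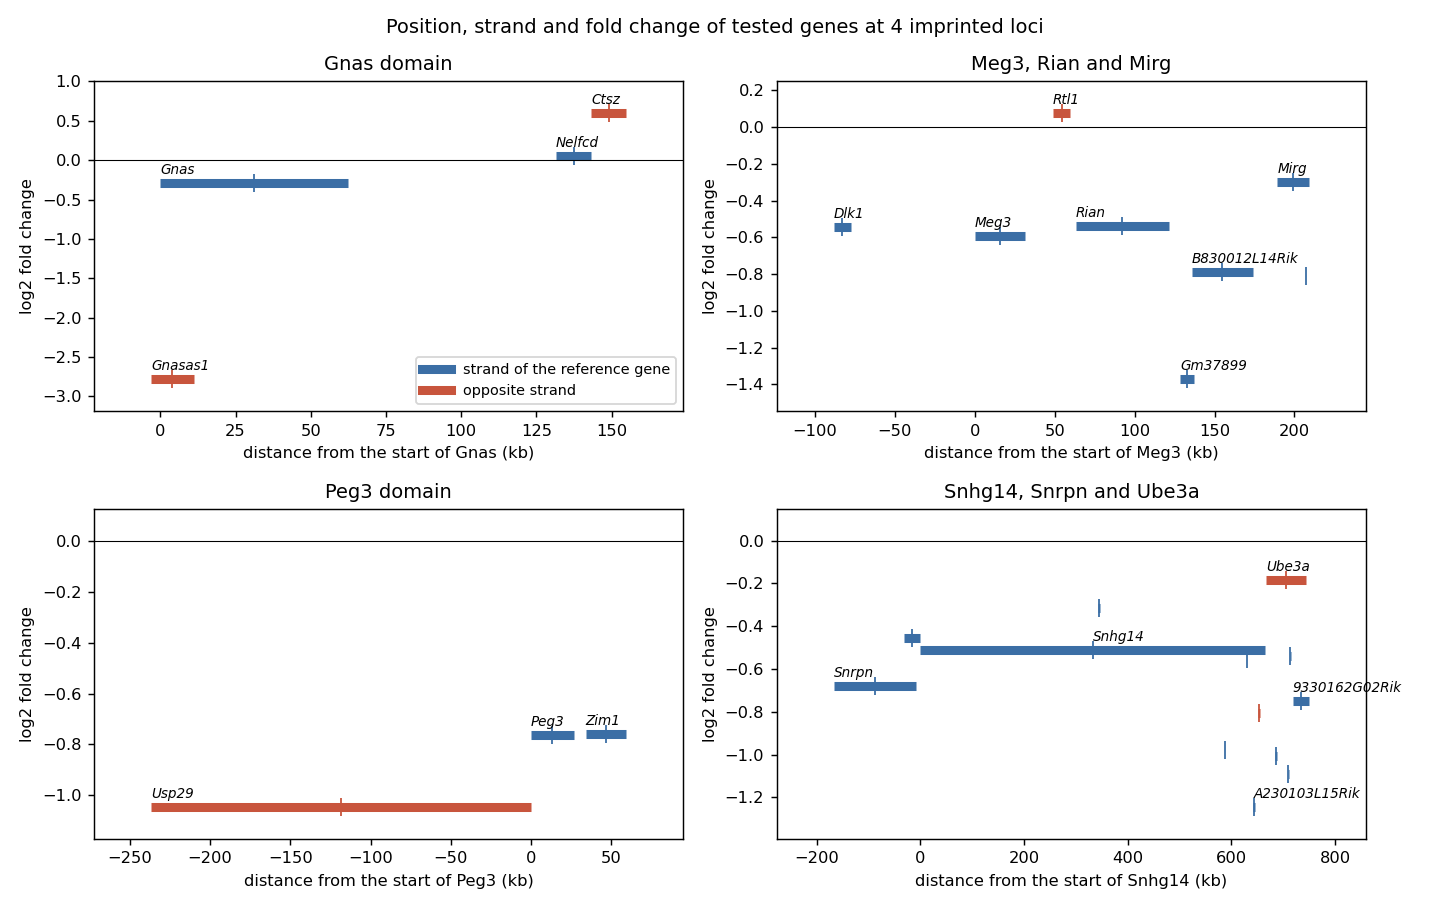
Log2 fold change (vertical axis) of the tested genes at 4 loci, drawn as bars along their span by distance from the start of Gnas, Meg3, Peg3 or Snhg14 (horizontal axis, kb, in the direction of transcription of that gene). Blue bars lie on the strand of that gene and red bars on the opposite strand; unlabelled marks are small RNA and predicted genes. Gnasas1 lies under the first part of Gnas at a value far lower than that of Gnas, and Ube3a lies beyond Snhg14 on the opposite strand.

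The other imprinted genes were listed from general knowledge, with earlier results of these data known. Of 76 listed genes 64 were tested. By edgeR's test 7 of these (10.9%) fell, 1 (1.56%) rose and 56 did not pass, where 3.39% of all tested genes fell and 1.62% rose. Their median log2 fold change was -0.19, and 45 values were negative and 19 positive. Besides Usp29, Adam23 and Dlk1, those that fell were Kcnk9, Peg13, Ppp1r9a and Herc3. Kcnk9, a background potassium channel gene, fell from 88.2, 62.1 and 89.8 CPM to 36.6, 28.7 and 30.0 CPM (log2 fold change -1.33 ± 0.16, adjusted p = 0.0117). Peg13, a long non-coding RNA of the same cluster as Kcnk9 but of the other parental origin, fell from 145 ± 14.9 to 76.5 ± 13.7 CPM (-0.92 ± 0.14, adjusted p = 0.0189), while Trappc9, the trafficking gene whose intron holds Peg13, had a log2 fold change of -0.12 ± 0.11 (adjusted p = 0.599). Ppp1r9a, which encodes the synaptic scaffold neurabin, fell by 0.75 ± 0.11 (adjusted p = 0.0189), and Herc3, a ubiquitin ligase gene, by 0.60 ± 0.11 (adjusted p = 0.0307), both on the log2 scale. H13, the signal peptide peptidase gene, rose from 101 ± 2.61 to 128 ± 2.25 CPM (log2 fold change 0.35 ± 0.07, adjusted p = 0.0413).

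Among the other imprinted genes 42 had a mean of at least 10 CPM, and 34 of these did not pass. In 10 of these all syringin libraries were below all PBS libraries (Igf2, Rasgrf1, Nap1l5, Snrpn, Begain, Kcnq1ot1, Jade1, Plagl1, Copg2 and Ube3a) and in 2 all were above (Igf2r and Nap1l4). Over all tested genes, whether or not they passed, 15.3% lay below in this way and 14.7% above. Igf2, the growth factor gene that meninges and fibroblasts express, had a log2 fold change of -1.29 ± 0.31 (adjusted p = 0.0602), Rasgrf1, a neuronal Ras exchange factor gene, of -0.81 ± 0.20 (adjusted p = 0.0609), and Igf2r, which encodes the receptor that takes Igf2 to lysosomes, of 0.53 ± 0.20 (adjusted p = 0.154). In the remaining 22 the groups overlapped: Dcn, H19, Grb10, Nnat, Casd1, Osbpl5, Cd81, Cobl, Mest, Blcap, Trappc9, Peg10, Cdkn1c, Pon2, Sgce, Inpp5f, Atp10a, Tssc4, Gab1, Commd1, Pon3 and Bcl2l1. The log2 fold changes of the 34 ran from -1.29 to 0.53. The calls among the other imprinted genes rested on few libraries. Their number was 2, 3 and 0 without PBS library 1, 2 or 3 and 11, 4 and 1 without syringin library 1, 2 or 3. Without PBS library 3 edgeR called 0 genes of the whole table, with 3449 of all and 15 of the 64 imprinted genes at an unadjusted p under 0.05. In that set limma-voom also called 0 genes and DESeq2 called 1466 of all and 13 of the 64.

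The pathway downstream of Gnas was counted over 35 tested genes of stimulatory G protein and cAMP signalling. By edgeR's test 3 (8.57%) fell and none rose, and the median log2 fold change was -0.25. Over all tested genes 3.39% fell and 1.62% rose, the shares to set beside this list and those below. Adcy1, a calmodulin-activated adenylyl cyclase of neurons, fell from 119 ± 3.10 to 54.2 ± 14.7 CPM (log2 fold change -1.13 ± 0.17, adjusted p = 0.0189). Pde4a, a cAMP phosphodiesterase, fell by 0.71 ± 0.12 (adjusted p = 0.0249) and Rapgef3, the cAMP-activated exchange factor Epac, by 0.39 ± 0.09 (adjusted p = 0.0493), both on the log2 scale. Creb1, the gene of the factor that binds the cAMP response element, had a log2 fold change of 0.05 (adjusted p = 0.777). Of 12 tested MAGE family genes and partners of necdin and Magel2, Magee1 fell (-0.58 ± 0.13, adjusted p = 0.0481) and Trim27, the ubiquitin ligase that Magel2 binds, rose (0.46 ± 0.09, adjusted p = 0.038), with a median of 0.05. Of 18 tested long non-coding RNAs of brain and cord only Peg13, named above, passed, and the median was -0.20. Neat1, the most abundant of these, had 1267 ± 272 CPM against 1770 ± 224 CPM (log2 fold change 0.48 ± 0.17, adjusted p = 0.141).

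Markers of cell types moved in the same comparison. Of 20 tested neuron markers 10 fell and none rose, all 20 values were negative, and the median log2 fold change was -0.76. Nefh, the heavy neurofilament subunit, fell by 1.28 ± 0.19 (edgeR adjusted p = 0.0189), Syn2, a synaptic vesicle protein, by 0.81 ± 0.12 (adjusted p = 0.0189) and Thy1 by 0.67 ± 0.10 (adjusted p = 0.0188), all on the log2 scale. The summed level of the 20 neuron markers was 5947 to 7386 CPM in the PBS libraries and 3194 to 4672 CPM in the syringin libraries, and that of the 10 members 3861 to 4639 CPM against 2398 to 3677 CPM. Relative to the mean of the 6 libraries, the mean log2 CPM of the neuron markers was 0.46, 0.23 and 0.37 in the PBS libraries and -0.10, -0.72 and -0.23 in the syringin libraries. That of the members was 0.38, 0.30 and 0.46 against -0.36, -0.71 and -0.06. Syringin library 2 was lowest for both sets, while libraries 1 and 3 changed places between them. The part of neuron number in the members' difference was not tested.

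Of 14 astrocyte markers 7 fell and none rose (median -0.59), among them the glutamate transporter Slc1a2 from 1313 ± 146 to 656 ± 78.2 CPM (adjusted p = 0.0137), the connexin Gjb6 (adjusted p = 0.0207), the bicarbonate transporter Slc4a4 (adjusted p = 0.0228) and Gpc5 (adjusted p = 0.0242). Of 15 markers of infiltrating macrophages 8 rose and none fell (median 1.06). They included F10 from 8.27 ± 0.863 to 19.8 ± 2.67 CPM (adjusted p = 0.0114), Clec4d (adjusted p = 0.0129), Cd44 (adjusted p = 0.0139) and Lgals3 (adjusted p = 0.0207). Their summed level was 3510 to 4471 CPM in the PBS libraries and 4994 to 11760 CPM in the syringin libraries, highest where the members were lowest, in syringin library 2, on the mean of the list. None of 12 oligodendrocyte markers passed (median 0.07), and Mbp, the most abundant, had a log2 fold change of -0.01 ± 0.16 (adjusted p = 0.989). None of 9 microglia markers (median -0.39), 10 fibroblast and meningeal markers (median -0.42, Col3a1 -0.13 ± 0.27), 7 ependymal markers (median -0.05, Foxj1 0.15 ± 0.18) or 11 sensory ganglion markers (median 0.29, Prph -0.29 ± 0.77) passed. In the ganglion list Mrgprd, Scn10a and Scn11a were at 0 counts in some libraries. Of 9 Schwann cell markers only Ncmap passed, and fell (-1.49 ± 0.24, adjusted p = 0.0209), but 8 values were negative and the median was -0.75. Of 10 endothelial markers only Pecam1 passed, and rose (0.58 ± 0.10, adjusted p = 0.0245), with a median of 0.23. With the ganglion markers as a covariate the log2 fold changes of Gnasas1 and Peg3 were -2.74 and -0.87, within 1 standard error of those without it. The ganglion markers varied mostly within the groups, so this covariate could move a fold change only a little, and nothing is read from this. The part of the other cell types in the members' difference was not tested.

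**Figure D4:**
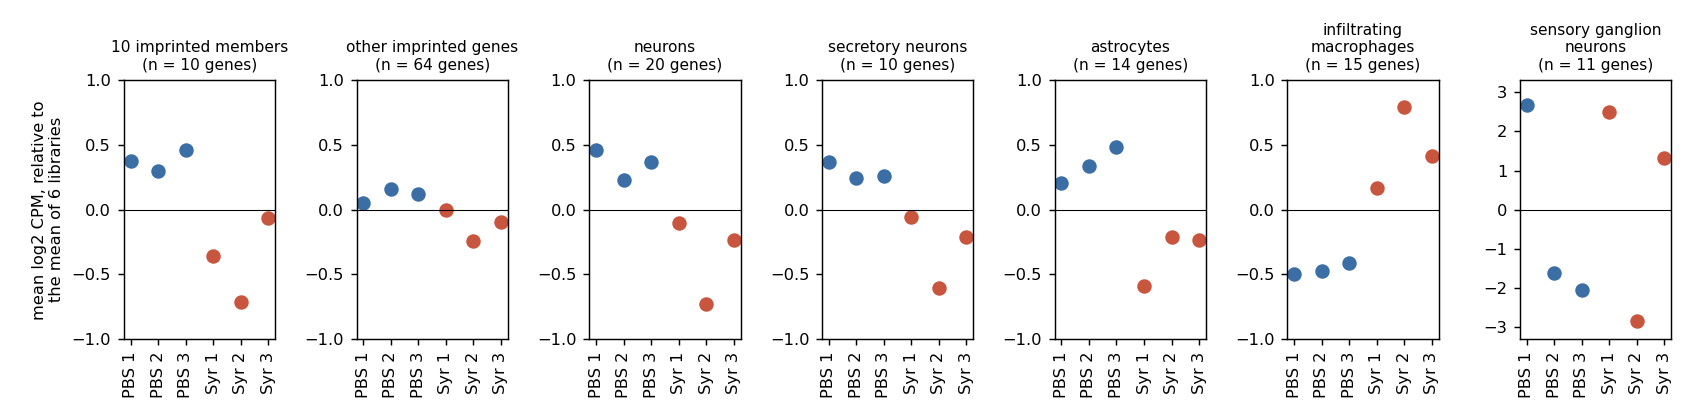
Mean log2 CPM of each gene list relative to its mean over the 6 libraries (vertical axis, wider for sensory ganglion markers) in the PBS libraries (blue) and syringin libraries (red). The members, the neuron markers and the secretory neuron genes are lowest in syringin library 2, where the macrophage markers are highest, and the ganglion markers divide the libraries across both groups.

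The genes whose pattern over the 6 libraries was most like that of a member were found as the smallest root mean square difference of centred log2 CPM, among 16586 genes whose mean reached 1 CPM. The measure is over 6 libraries, which share depth and tissue makeup between genes, and carries no test. For Meg3 the nearest were Gm27000, Grip2, Snhg11, Ict1os and Amy1, at 0.066 to 0.069. Snhg11 is a neuronal non-coding RNA and Grip2 a scaffold of glutamate receptors. Rian ranked 19 for Meg3, at 0.094, and Snhg14, of another cluster, ranked 49, at 0.119. Mirg, which lies beyond Rian, ranked 1720. For Peg3 the nearest were Ccdc92, Kcnip1, Clic3, Slc26a8 and Scg5, at 0.053 to 0.076, of which Kcnip1 is a potassium channel subunit of neurons and Scg5 a secretory granule chaperone. For Zdbf2 they were Cntnap1, Pnma8b, Akap5, Tmem130 and Lmo3, at 0.028 to 0.053. Cntnap1 encodes the axonal protein Caspr and Akap5 a postsynaptic anchor of the cAMP-dependent kinase. For Ndn they were Zfp667, 4933428G20Rik, Zfp959, Ptprn and Shisa8, at 0.026 to 0.040, and for Gnas Ndufb5, Haghl, Gm37090, a gene with no symbol and Akap17b, at 0.021 to 0.042. No member was among the 5 nearest of these 5 genes, the only members for which nearest genes were sought, and Gnasas1 ranked between 15531 and 16489 for them. The measure also grows with the size of a difference, and the log2 fold change of Gnasas1, -2.78, was the largest in size among the members.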

How the data were processed

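Estimated counts per gene (whole numbers as deposited, so rounding changed nothing) and FPKM values were taken as the authors deposited them, in 1 table of 6 libraries. Per the labels' protocols, TRIzol was used to isolate RNA, and libraries of polyadenylated RNA were made with a strand-marking TruSeq kit. The submitters' processing notes name HISAT2, StringTie, GRCm38 and mm10, with no versions. Samples were grouped by their labelled treatment.

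Counts were filtered with filterByExpr (minimum count 10, total 15; 22114 genes, all 10 members included), scaled by TMM (factors 0.9655 to 1.0292) and fitted with edgeR 4.0.16's robust quasi-likelihood model in R 4.3.3, with Benjamini-Hochberg adjustment over all tested genes; a gene was called under 0.05. The biological coefficient of variation was 24.92%. The edgeR script was tested on simulated data. The members and gene lists were chosen with earlier results of these data known, so members carry no p. Genes were named by rule: the members, rows overlapping them, called and abundant (10 CPM or more) other imprinted genes, the 5 nearest by pattern for the most abundant member of each cluster and, in every other list, up to 4 called genes with the smallest p or, where none was called, the most abundant. Some genes that the rule takes are left out. Neighbours within 100 kb and Creb1, Gm44560, Gm44559 and Gm44562 were named after their values were seen. Other settings included DESeq2 1.42.0 and limma 3.58.1 (voom, or log2(FPKM + 0.1)).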

Additional observations from a re-analysis of the deposited data

How the results depend on the processing

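All 10 members and the 8 called imprinted genes kept the sign of their log2 fold change under all 21 other settings. Both sets were chosen on this same contrast and every setting used the same libraries, so a kept sign is no further support. The settings with DESeq2 or limma-voom without PBS library 3 were chosen after seeing the data. The number of genes called, 1108 in the reported fit, was 3191 with DESeq2, 696 with limma on log2(FPKM + 0.1), 2557 with the replicate block and 2581 with the sensory ganglion covariate, and ran from 0 to 1944 when each library was left out. The number of other imprinted genes called, 8 in the reported fit, was 17, 4, 14 and 16 under those settings in the same order, and ran from 0 to 11 over the libraries left out. Without PBS library 3, limma-voom called 0 genes and 0 imprinted genes and DESeq2 called 1466 and 13. The cause of these shifts was not tested, beyond the smaller number of samples where a library was left out.

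Whether the replicate numbers in the labels pair the libraries was not settled. Log2 CPM was centred on the group mean of each gene, over genes with a mean of at least 1 CPM, and these residuals were correlated between libraries. Same-numbered libraries had residual correlations of 0.49, 0.25 and 0.06, and pairs with different numbers ran from -0.43 to 0.31. The centring itself forces values of both signs, and these are not correlations of whole expression profiles. Syringin library 2 was closer to PBS library 3, at 0.31, than to PBS library 2. On the FPKM scale the log2 fold change of Gnasas1 was -1.87, where the added 0.1 is large beside its values. Leaving out syringin library 3 moved Mirg to -0.66, Snhg14 to -0.81, Rian to -0.79, Magel2 to -0.74, Ndn to -0.31 and Gnas to -0.42, and leaving out syringin library 2 moved them to -0.13, -0.32, -0.37, -0.33, -0.04 and -0.22. If 1 fragment adds about 4 counts, the precision of scarce members such as Gnasas1 is lower than their counts imply.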

Other observations

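Genes of neuropeptide-releasing and hormone-like secretory neurons, several of which encode proteins of the secretory granule, were counted as a further list. Of 10 such genes tested, 4 fell and none rose by edgeR's test, and the median log2 fold change was -0.64. All syringin libraries lay below all PBS libraries in 8 of them and above in 1. Of the 20 neuron markers 10 fell, with a median of -0.76, and the part of neuron number in this list was not tested. Chga, which encodes chromogranin A, fell from 115 ± 6.18 to 55.7 ± 12.1 CPM (SD, n = 3; adjusted p = 0.0178), and Chgb, of chromogranin B, from 91.0 ± 3.74 to 47.2 ± 7.87 CPM (adjusted p = 0.0142). Scg3, which binds chromogranin A in the granule, fell by 0.62 ± 0.12 (adjusted p = 0.0302) and Pcsk1, a prohormone convertase, by 0.66 ± 0.14 (adjusted p = 0.0434), both on the log2 scale. Their mean over the list was lowest in syringin library 2, as was that of the 10 imprinted members. The same library was lowest for the neuron markers, the other imprinted genes, the cAMP pathway list and the long non-coding RNAs, so this is not particular to the secretory genes.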
